A study of Mus musculus with 5 samples.

Results

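The 50 genes described here encode proteins that copy the genome and divide the cell, and fall into 25 DNA replication genes and 25 mitosis genes. They were taken as every non-control probe whose gene name in the array files equalled 1 of the 50 symbols, which gave 65 probes for 50 genes of the 21982 genes that could be named. The arrays were single-colour Agilent mouse expression arrays with 60-base probes, 1 per sample, hybridised with Cy3-labelled RNA from cultured primary cells. The 5 samples were 1 of mouse embryonic fibroblasts (MEF, the starting cell type), 1 of neural progenitor cells induced by chemicals (ciNPC) at passage 5 (p5), 2 of ciNPC at passage 13 (p13) and 1 of neural progenitors taken from mouse brain (NPC, the control cells). The series title adds that the conversion used chemical cocktails and hypoxia. The labels give no strain, age, agent or dose, and do not state whether the p13 replicates are independent cultures. The p-values therefore rest on scatter among the 3 ciNPC arrays, or between the 2 p13 arrays for p13 against p5, together with the spread over all genes. That scatter can be technical, and the single MEF and NPC arrays add nothing to it. Values are log2 processed signal minus the 75th percentile of the array, so that a value of 0 marks a probe as bright as that percentile, and 1 unit is a 2-fold difference. Where a gene had several probes, the brightest on average stood for it.

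A dividing cell licenses its replication origins in G1 by loading the MCM helicase, fires them in S phase with the help of GINS and Cdc45, and copies both strands with a primase, polymerases and a sliding clamp. In mitosis, cyclin B with Cdk1 and the Polo and Aurora kinases drive entry, kinetochores attach chromosomes to the spindle, and a checkpoint holds the anaphase-promoting complex until attachment is complete. Genes of the first group are classical targets of E2F transcription factors at the G1/S boundary, and genes of the second are classical targets of the DREAM and MMB-FOXM1 complexes, which act through CHR elements and CCAAT boxes late in the cycle. Neural progenitors are kept in culture as a proliferating population, while primary embryonic fibroblasts slow down as they are passaged.

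MEF and NPC were hybridised on 1 slide and all ciNPC on another, each with its own scan, so the step from MEF or NPC to ciNPC and the step between slides cannot be told apart. Comparing NPC with MEF, or p13 with p5, crosses no slide. Between 47.9% and 57.6% of non-control spots were well above background, and no spot was saturated. The spike-in slope was 0.803 for ciNPC p13 replicate 2 against 0.915 to 0.987 for the other arrays, and list values without that array are given beside the results. As a check of the labels, 15 of 15 fibroblast markers were above background in MEF and in every ciNPC array and 10 of 15 in NPC, with a median log2 signal of 6.68 in MEF, 2.77, 2.35 and 2.39 in ciNPC and -3.19 in NPC. Neural progenitor markers were above background for 9 of 15 in MEF, 14 of 15 in ciNPC p5 and 15 of 15 in both p13 arrays and NPC, with medians of -2.33 in MEF, 1.18, 1.70 and 1.52 in ciNPC and 1.76 in NPC. Among the fibroblast markers, the collagen gene Col1a2 read 6.50 to 7.04 in ciNPC against 9.73 in MEF, and the part of any remaining fibroblasts in the values below was not tested. Macrophage markers were above background for 5 of 7 in MEF, 5, 4 and 5 of 7 in ciNPC and 3 of 7 in NPC.

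Because many members were higher in ciNPC and NPC together, promoters are shown first, for the replication and mitosis genes furthest above MEF among those the reference table holds. RefSeq windows of GRCm38.p6, from 250 bases before to 50 bases after a start, matched 41 of the 50 genes and gave 45 windows, since Fen1, Lig1 and Mcm7 have several starts. Kif20a, Foxm1, Aurkb, Ccne2, Mcm4, Ccna2, Gins2, Gins1 and Tpx2 had no window. The windows below are those of Cdc45 (chr16:18811923-18812222, minus strand), Cdc6 (chr11:98907901-98908200, plus strand), Pola1 (chrX:93632106-93632405, minus strand), Cenpf (chr1:189688037-189688336, minus strand), Ccnb1 (chr13:100786437-100786736, minus strand) and Nusap1 (chr2:119618048-119618347, plus strand), each written 5′ to 3′ on the gene's strand. Capitals mark letters of an E2F motif (TTCCCGC or TTGGCGC), a CHR motif (TTTGAA) or a CCAAT box (CCAAT), on either strand.
Cdc45: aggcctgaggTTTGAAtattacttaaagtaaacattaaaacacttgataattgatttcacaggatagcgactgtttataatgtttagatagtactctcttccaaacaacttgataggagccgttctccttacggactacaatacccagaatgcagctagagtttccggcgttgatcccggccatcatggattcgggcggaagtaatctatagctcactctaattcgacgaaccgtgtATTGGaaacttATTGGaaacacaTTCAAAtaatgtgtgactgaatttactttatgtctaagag
Cdc6: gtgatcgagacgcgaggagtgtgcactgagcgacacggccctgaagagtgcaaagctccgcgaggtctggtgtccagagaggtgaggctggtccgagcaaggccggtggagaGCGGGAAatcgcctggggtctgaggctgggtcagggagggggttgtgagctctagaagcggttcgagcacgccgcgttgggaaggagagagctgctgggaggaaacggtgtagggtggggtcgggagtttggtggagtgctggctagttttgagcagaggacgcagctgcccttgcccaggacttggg
Pola1: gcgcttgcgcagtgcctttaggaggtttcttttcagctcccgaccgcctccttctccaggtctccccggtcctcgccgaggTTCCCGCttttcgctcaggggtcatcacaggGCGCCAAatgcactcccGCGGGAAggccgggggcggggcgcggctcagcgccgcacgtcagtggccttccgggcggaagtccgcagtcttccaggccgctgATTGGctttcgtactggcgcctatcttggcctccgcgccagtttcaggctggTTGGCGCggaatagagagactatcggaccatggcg
Cenpf: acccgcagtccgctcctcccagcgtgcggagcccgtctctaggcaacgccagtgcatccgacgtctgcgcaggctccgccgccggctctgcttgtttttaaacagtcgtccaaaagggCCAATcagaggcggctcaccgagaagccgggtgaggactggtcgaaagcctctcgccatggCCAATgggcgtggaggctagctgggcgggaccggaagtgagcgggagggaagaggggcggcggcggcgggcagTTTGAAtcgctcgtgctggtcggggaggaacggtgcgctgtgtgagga
Ccnb1: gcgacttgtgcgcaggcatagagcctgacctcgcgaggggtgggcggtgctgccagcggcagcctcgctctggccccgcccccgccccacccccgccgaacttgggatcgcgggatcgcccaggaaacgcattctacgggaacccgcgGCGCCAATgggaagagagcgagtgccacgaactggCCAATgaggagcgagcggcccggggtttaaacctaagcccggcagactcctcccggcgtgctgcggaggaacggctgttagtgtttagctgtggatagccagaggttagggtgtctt
Nusap1: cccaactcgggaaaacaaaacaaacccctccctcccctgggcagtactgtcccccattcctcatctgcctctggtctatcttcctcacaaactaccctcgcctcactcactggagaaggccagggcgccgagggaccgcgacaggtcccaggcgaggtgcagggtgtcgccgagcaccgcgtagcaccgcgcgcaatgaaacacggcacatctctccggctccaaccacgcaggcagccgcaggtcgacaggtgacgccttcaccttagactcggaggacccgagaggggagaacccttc

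Pola1 held 4 E2F matches and 1 CCAAT box, and Cdc6 held 1 E2F match and nothing else. Cdc45 held 2 CHR matches and 2 CCAAT boxes with no E2F match. Cenpf held 1 CHR match beside its start and 2 CCAAT boxes. In Ccnb1 the single E2F match overlaps 1 of the 2 CCAAT boxes, so the run of capitals covers both, and the Nusap1 window held none of the 3 motifs. The replication genes had 25 windows from 21 genes, and the mitosis genes 20 windows from 20 genes, so shares are of windows and not of genes. Over the replication genes, 13 of 25 windows (52%) held an E2F motif, against 3 of 20 windows (15%) of the mitosis genes and 6.81% of all 32851 windows of the table. The CHR motif ran the other way, with 3 of 25 replication windows (12%), 13 of 20 mitosis windows (65%) and 17.9% of all windows. CCAAT boxes were in 14 of 25 (56%), 16 of 20 (80%) and 37.4% of all windows. Both an E2F and a CHR match stood in the windows of Cdk1 and Mki67 alone among the members, and in 0.688% of all windows. Overlapping matches of different motifs occurred in 3 windows, of Ccnb1, Mcm7 and Prim1. A match is a description of the letters and not a bound site.

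The span between the starting cells and the control cells was measured on 1 array each, without a test. NPC read above MEF for all 48 members that passed the filter on dim probes, and 42 of them were at least 2-fold higher, 20 replication and 22 mitosis genes, against 22.1% of all 16228 genes measured. No member was 2-fold lower, against 25.2% of all genes. The median difference was 1.83 for the replication genes and 1.85 for the mitosis genes, beside -0.04 over all genes. The members under 2-fold were Mcm7, Rrm1, Ccne1, E2f1, Tpx2 and Kif20a. The widest gaps were 2.96 for Cdc6, 2.75 for Gins1, 2.68 for Pola1 and 2.53 for Pcna among the replication genes, and 2.81 for Ccnb1, 2.66 for Nusap1 and 2.31 for Top2a among the mitosis genes. Cenpf was not well above background in MEF, so its difference is a bound, at least 7.46-fold higher in NPC. A gene passed the filter if its probe was well above background throughout at least 1 group. Ccne2, a second cyclin E, and Aurkb, the kinase of the chromosomal passenger complex, were dim on all 5 arrays and were not tested.

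The design asked about the identity of ciNPC, first against MEF, the starting cell type. ciNPC carried more of the replication and mitosis transcripts than MEF. By limma on all genes, with a call at an adjusted p under 0.05 and at least 2-fold, 18 of 24 replication genes and 19 of 24 mitosis genes were higher, against 15.6% of all genes, and 0 were lower, against 15.1%. The median difference was 1.59 for replication and 1.63 for mitosis genes (3.09-fold for the latter), beside -0.08 over all genes. The 3 ciNPC arrays all lay above MEF for 47 of the 48 members, against 39.7% of all genes. Without regard to fold, 47 members had an adjusted p under 0.05 and were higher, against 23.5% of all genes, the exception being E2f1. Array by array the replication median over MEF was 1.69 in p5, 1.58 and 1.66 in p13, and the mitosis median was 1.73, 1.62 and 1.54. Leaving out p13 replicate 2 gave medians of 1.62 and 1.65 and 18 and 20 genes higher. The 19 mitosis genes and both counts of 47 include Cenpf, which was not well above background in MEF. It passed the filter only through the groups where it was high, so its call supports nothing on its own. Among genes well above background on all 5 arrays, which leaves it out, 18 of 23 mitosis genes were higher, against 2042 of all 12019 genes. The 14 housekeeping genes had a median of -0.29 and ranged from -1.01 for Eef2, called lower, to 1.26 for Tbp, called higher. In bulk RNA, a larger share of cycling cells and more RNA per cycling cell cannot be told apart.

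**Figure D1:**
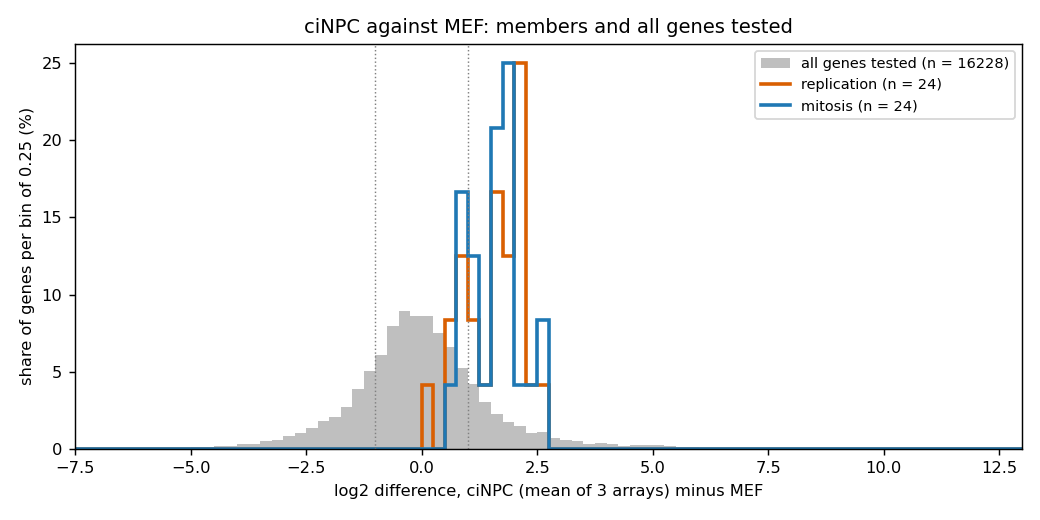
Share of genes (%) in bins of 0.25 along the log2 difference of ciNPC (mean of 3 arrays) minus MEF, for all 16228 genes tested (grey), the 24 replication genes (orange) and the 24 mitosis genes (blue); dotted lines mark 2-fold. All genes are centred near -0.08, while both lists lie wholly above 0 with medians of 1.59 and 1.63.

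Of the MCM helicase subunits, which unwind DNA ahead of the fork, 4 of 6 were higher and their median difference was 1.54. The Mcm2 signal was 2.06 in MEF, 3.67 in ciNPC p5, 3.64 and 3.67 in ciNPC p13, and 3.85 in NPC. Mcm3 read 3.82 on the MEF array and 5.57 on the NPC array, with ciNPC at 5.37 (p5), 5.34 and 5.33 (p13). Mcm4 was 3.53 in MEF, 5.30 in ciNPC p5, 5.05 and 4.97 in ciNPC p13, and 5.36 in NPC. In these subunits, as in the other 3, every ciNPC array stood between the MEF and the NPC array. Over all genes, 39.7% had all 3 ciNPC arrays above MEF and 42.1% had all 3 below NPC. The share with both is not given here, so the order is not read as particular to these genes. The differences were 1.60 (SE 0.13, adjusted p 1.21e-04) for Mcm2, 1.52 (SE 0.12) for Mcm3 and 1.57 (SE 0.16) for Mcm4. Mcm5 gave 2.50 in MEF, 3.88 in ciNPC p5, 4.07 and 4.21 in ciNPC p13, and 4.33 in NPC, a difference of 1.56 (SE 0.16), and p5 was the lowest of its ciNPC arrays. Mcm6 read 5.77 on the MEF array and 6.82 on the NPC array, with ciNPC at 6.63 (p5), 6.57 and 6.46 (p13), and Mcm7 read 4.64 on the MEF array and 5.55 on the NPC array, with ciNPC at 5.23 (p5), 5.14 and 5.18 (p13). Their differences of 0.78 (SE 0.13) and 0.55 (SE 0.12) had adjusted p of 0.0023 and 0.00892 but stayed under 2-fold.

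The helicase activators had the highest median of the replication roles, 2.18, with 4 of 4 higher. Cdc45, the helicase cofactor (probe at chr16:18807449-18807508 on mm9), read -2.43 in MEF, -0.27 in ciNPC p5, 0.75 and -0.23 in ciNPC p13, and -0.03 in NPC. Its 2 p13 arrays were 0.98 apart, the widest gap of any member, and replicate 1 alone stood high. The mean of 0.08 ± 0.58 (SD, n = 3) gave a difference from MEF of 2.51 (SE 0.43, adjusted p 0.00282), which all 3 arrays shared. Gins1, a GINS subunit (probe at chr2:150756868-150756927), was 2.92, 2.88 and 2.87 on the ciNPC p5, p13 replicate 1 and p13 replicate 2 arrays, against 0.65 in MEF and 3.40 in NPC. Its ciNPC arrays lay close together, above MEF and below NPC, and differed from MEF by 2.24 (SE 0.14, adjusted p 4.47e-05). Gins2, another GINS subunit, read -0.11 in MEF, 2.08 in ciNPC p5, 1.73 and 1.73 in ciNPC p13, and 2.02 in NPC, with p5 above NPC and a difference of 1.96 (SE 0.20). Mcm10, which helps activate the loaded helicase, read 1.41 in MEF, 3.62 in ciNPC p5, 3.43 and 3.52 in ciNPC p13, and 3.82 in NPC, a difference of 2.11 (SE 0.14).

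Of the origin licensing genes 1 of 2 was called. Cdc6, which loads the helicase onto origins (probe at chr11:98782986-98783045), read -2.17 in MEF, 0.17 in ciNPC p5, 0.13 and 0.45 in ciNPC p13, and 0.80 in NPC. MEF stood more than 2 log2 units below every other array, and the difference was 2.42 (SE 0.24, adjusted p 2.73e-04), or 5.34-fold. Cdt1, the partner of Cdc6 in loading, read 3.73 on the MEF array and 4.75 on the NPC array, with ciNPC at 4.78 (p5), 4.54 and 4.52 (p13). Its difference of 0.88 (SE 0.15) had an adjusted p of 0.00293 and was under 2-fold.

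At the fork itself, the 5 polymerase, primase, clamp and clamp-loader genes among the members were higher, while Rfc1 at 0.16 (SE 0.13), Rfc2 at 0.18 (SE 0.15), Pola2 at 0.97 (SE 0.39), Prim2 at 0.89 (SE 0.16) and Pole at 0.99 (SE 0.13), of the further list of replication factors, were not called and Pole2, Pold1, Pold2, Pold3 and Rfc5 of that list were. These 10 were named after their values were seen. Pola1, the catalytic subunit of the polymerase that starts each strand (probe at chrX:90550189-90550248), was 3.13, 2.72 and 2.90 on the ciNPC p5, p13 replicate 1 and p13 replicate 2 arrays, against 0.77 in MEF and 3.45 in NPC. The order was MEF, p13, p5 and NPC with no overlap, and ciNPC differed from MEF by 2.14 (SE 0.19, adjusted p 1.65e-04). Prim1, the primase subunit that lays the RNA primer, read 2.12 in MEF, 4.28 in ciNPC p5, 4.04 and 4.07 in ciNPC p13, and 4.37 in NPC, a difference of 2.01 (SE 0.15). Pcna, the sliding clamp, gave 3.93 in MEF, 6.17 in ciNPC p5, 6.02 and 5.96 in ciNPC p13, and 6.46 in NPC and a difference of 2.11 (SE 0.14, adjusted p 4.71e-05). The clamp-loader genes Rfc3 and Rfc4 had differences of 2.11 (SE 0.20) and 1.90 (SE 0.14). Rfc3 was -1.29 in MEF, 0.97 in ciNPC p5, 0.74 and 0.76 in ciNPC p13, and 1.20 in NPC, and Rfc4 was 2.53 in MEF, 4.54 in ciNPC p5, 4.39 and 4.37 in ciNPC p13, and 4.79 in NPC. For each of the 5 members all ciNPC arrays lay above MEF and below NPC. Taken apart, the shares of all genes were 39.7% above MEF and 42.1% below NPC, and the share with both is not given here. Fen1, the flap nuclease that trims Okazaki fragments, read 3.40 in MEF, 4.99 in ciNPC p5, 4.80 and 4.87 in ciNPC p13, and 5.06 in NPC, and Lig1, the ligase that seals them, read 3.77 in MEF, 4.83 in ciNPC p5, 4.94 and 4.99 in ciNPC p13, and 5.41 in NPC. Both were higher in ciNPC, by 1.48 (SE 0.13) and 1.16 (SE 0.13).

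Of the genes that supply nucleotides, 2 of 3 were higher. Rrm2, the regulated subunit of ribonucleotide reductase, read 4.34 in MEF, 6.38 in ciNPC p5, 6.21 and 6.09 in ciNPC p13, and 6.26 in NPC, a difference of 1.88 (SE 0.15, adjusted p 1.01e-04), while Rrm1, its partner subunit, read 3.71 on the MEF array and 4.61 on the NPC array, with ciNPC at 4.57 (p5), 4.48 and 4.50 (p13), a difference of 0.81 (SE 0.13) that stayed under 2-fold. Tyms, thymidylate synthase, read -2.04 in MEF, -0.56 in ciNPC p5, -1.04 and -1.14 in ciNPC p13, and -0.67 in NPC. All ciNPC arrays exceeded MEF, p5 stood above NPC and both p13 arrays below it, and the difference of 1.13 (SE 0.33, adjusted p 0.0286) lost its call without p5, when it was 0.95.

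Of the G1/S regulators 0 of the 2 tested were called, and their median was 0.34. E2f1, the transcription factor that activates S-phase genes, read 1.98 in MEF, 1.84 in ciNPC p5, 2.21 and 2.12 in ciNPC p13, and 2.33 in NPC. MEF lay within the range of the ciNPC arrays, and the difference was 0.08 (95% interval -0.37 to 0.53, adjusted p 0.767). Ccne1, cyclin E1, which with Cdk2 triggers S-phase entry, read 3.69 in MEF, 4.45 in ciNPC p5, 4.24 and 4.20 in ciNPC p13, and 3.95 in NPC. All ciNPC arrays were above both MEF and NPC, and the difference from MEF was 0.61 (SE 0.15), under 2-fold. Its second probe was dimmer and gave 1.59, and the mean over both probes, 1.10, was called.

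**Figure D2:**
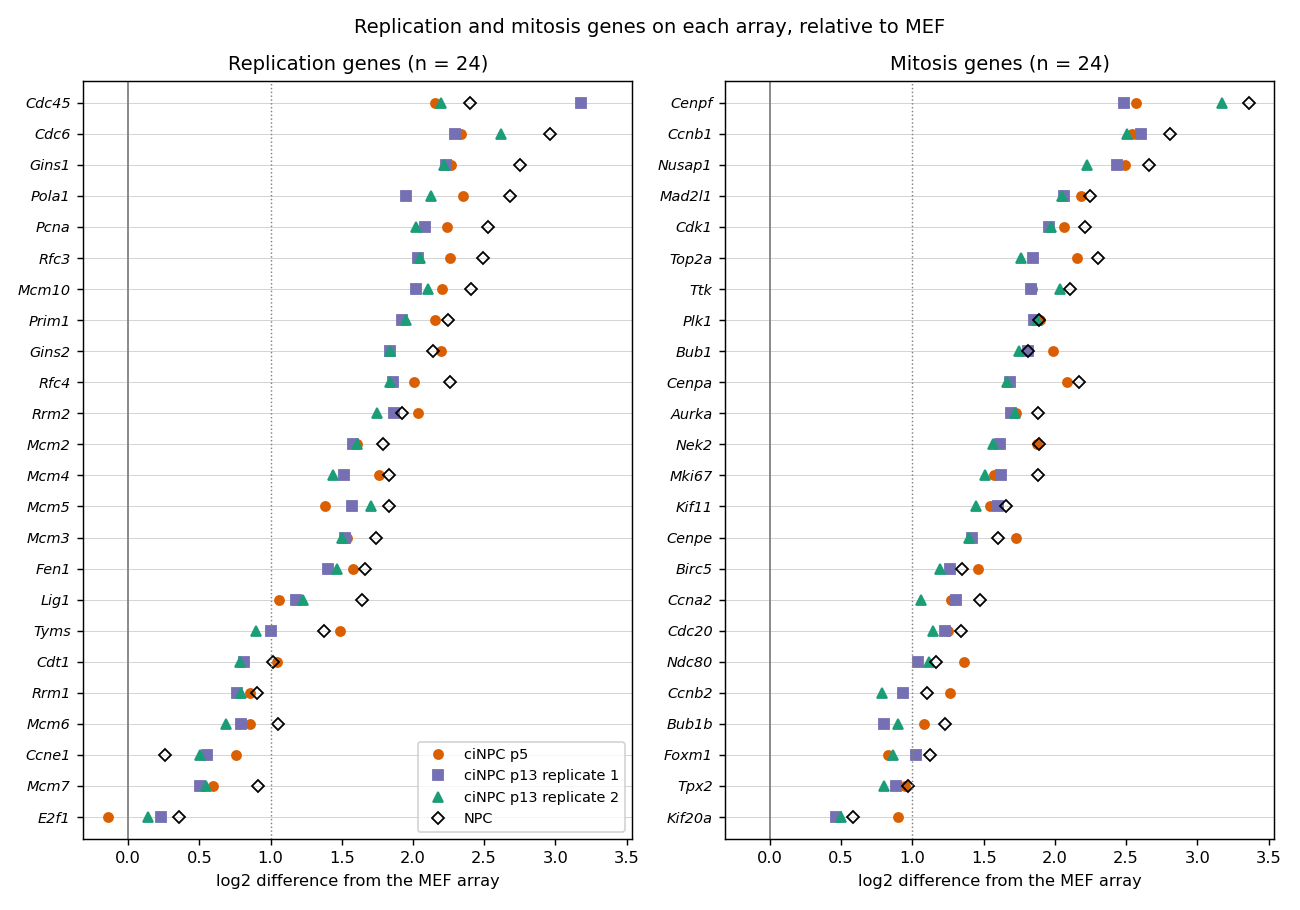
Log2 difference of each ciNPC array (p5 circles, p13 replicate 1 squares, p13 replicate 2 triangles) and of the NPC array (open diamonds) from the MEF array, for the 24 replication genes (left) and 24 mitosis genes (right) tested, ordered by the ciNPC mean; the solid line is no difference and the dotted line 2-fold. Only E2f1 has a ciNPC array on the low side of 0, and the NPC diamonds sit at or beyond the ciNPC points for most genes.

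Among the mitotic cyclins and their kinase, 3 of 4 were higher, with a median of 1.60. Ccnb1, cyclin B1 (probe at chr13:101548722-101548781), read 2.56 in MEF, 5.11 in ciNPC p5, 5.17 and 5.07 in ciNPC p13, and 5.37 in NPC. The ciNPC arrays lay close together, far above MEF and below NPC, with a difference of 2.55 (SE 0.12, adjusted p 1.76e-05) or 5.86-fold. Cdk1, its catalytic partner, read 1.51 in MEF, 3.58 in ciNPC p5, 3.47 and 3.48 in ciNPC p13, and 3.72 in NPC, a difference of 2.00 (SE 0.14). Ccna2, cyclin A2, which acts in S phase and early mitosis, read 3.26 on the MEF array and 4.74 on the NPC array, with ciNPC at 4.53 (p5), 4.57 and 4.32 (p13), a difference of 1.21 (SE 0.15). Ccnb2, cyclin B2, read 3.70 in MEF, 4.97 in ciNPC p5, 4.63 and 4.49 in ciNPC p13, and 4.80 in NPC. Its difference of 0.99 (SE 0.20) was just under 2-fold, and leaving out either p13 replicate 1 or p13 replicate 2 took it to 1.03 and 1.10 and past the threshold.

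The chromosome genes Top2a and Mki67 were both higher. Top2a, the topoisomerase that untangles sister chromatids, was 3.54, 3.23 and 3.15 on the ciNPC p5, p13 replicate 1 and p13 replicate 2 arrays, against 1.38 in MEF and 3.69 in NPC. Mki67, the Ki-67 proliferation marker that coats mitotic chromosomes, was 6.03, 6.09 and 5.97 on the ciNPC p5, p13 replicate 1 and p13 replicate 2 arrays, against 4.46 in MEF and 6.35 in NPC. In both genes the ciNPC arrays lay below NPC and well above MEF, by 1.92 (SE 0.19, adjusted p 2.44e-04) and 1.57 (SE 0.12, adjusted p 9.66e-05).

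All 4 mitotic kinases tested were higher, with a median of 1.79. Plk1, the Polo kinase, read 3.57 in MEF, 5.47 in ciNPC p5, 5.43 and 5.44 in ciNPC p13, and 5.46 in NPC. The 3 ciNPC arrays and NPC differed by less than 0.05, and ciNPC exceeded MEF by 1.87 (SE 0.12, adjusted p 4.56e-05). Aurka, the Aurora kinase of the spindle poles, read 2.88 in MEF, 4.60 in ciNPC p5, 4.57 and 4.59 in ciNPC p13, and 4.76 in NPC, a difference of 1.71 (SE 0.12). Nek2, a centrosome kinase, read -1.34 in MEF, 0.53 in ciNPC p5, 0.28 and 0.22 in ciNPC p13, and 0.55 in NPC, a difference of 1.68 (SE 0.23). Ttk, the Mps1 kinase that starts the checkpoint signal, read -3.16 in MEF, -1.32 in ciNPC p5, -1.32 and -1.12 in ciNPC p13, and -1.05 in NPC, a difference of 1.90 (SE 0.32). In all 4 genes MEF was the lowest array. Over all genes, 39.7% had all 3 ciNPC arrays above MEF, and the share with NPC above MEF as well is not given here.

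Spindle checkpoint genes and the APC activator were higher in 3 of 4 cases. Mad2l1, the Mad2 protein that restrains the anaphase-promoting complex, read 1.77 in MEF, 3.95 in ciNPC p5, 3.84 and 3.82 in ciNPC p13, and 4.02 in NPC, a difference of 2.10 (SE 0.14, adjusted p 5.12e-05). Bub1, a checkpoint kinase, read 0.56 in MEF, 2.55 in ciNPC p5, 2.37 and 2.31 in ciNPC p13, and 2.38 in NPC, a difference of 1.85 (SE 0.17). Cdc20, the activator that Mad2 holds back, read 4.32 on the MEF array and 5.66 on the NPC array, with ciNPC at 5.57 (p5), 5.55 and 5.46 (p13), a difference of 1.21 (SE 0.12). Bub1b, the BubR1 checkpoint protein, read 0.31 on the MEF array and 1.54 on the NPC array, with ciNPC at 1.39 (p5), 1.12 and 1.22 (p13), and its 0.93 (SE 0.19) stayed under 2-fold.

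The centromere and kinetochore genes were higher in 5 of 5 cases. Cenpf, a large kinetochore protein (probe at chr1:191464978-191465037), read -4.58 in MEF, -2.01 in ciNPC p5, -2.09 and -1.41 in ciNPC p13, and -1.22 in NPC. In MEF it was not well above background, so it passed the filter only through the groups where it was high, the sole member to do so, and its call supports nothing on its own. ciNPC were at least 4.85-fold higher, the mean of 3 arrays being taken against the lowest signal well above background on the MEF array. The fit on the measured MEF signal, below background, gave an adjusted p of 0.00269, which does not belong to that bound. Cenpa, the histone H3 variant of centromeres, read 2.00 in MEF, 4.08 in ciNPC p5, 3.68 and 3.66 in ciNPC p13, and 4.17 in NPC, a difference of 1.81 (SE 0.20). Cenpe, a kinetochore motor, differed by 1.51 (SE 0.17), Birc5, the survivin subunit of the passenger complex, by 1.30 (SE 0.14), and Ndc80, which binds microtubules at the kinetochore, by 1.17 (SE 0.20). Cenpe read 3.77 in MEF, 5.50 in ciNPC p5, 5.19 and 5.17 in ciNPC p13, and 5.37 in NPC. Birc5 was 5.24 in MEF, 6.70 in ciNPC p5, 6.51 and 6.43 in ciNPC p13, and 6.60 in NPC. Ndc80 was 0.02 in MEF, 1.38 in ciNPC p5, 1.06 and 1.14 in ciNPC p13, and 1.18 in NPC. In these 3 genes p5 was the highest array and MEF the lowest, an order whose share over all genes is not given here.

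Of the spindle genes 2 of 4 were called higher, and the other 2 missed the call on fold alone. Nusap1, which bundles spindle microtubules (probe at chr2:119475072-119475131), read 0.40 in MEF, 2.89 in ciNPC p5, 2.84 and 2.62 in ciNPC p13, and 3.05 in NPC, a difference of 2.39 (SE 0.17, adjusted p 6.81e-05). Kif11, the motor that separates the spindle poles, read 0.05 in MEF, 1.59 in ciNPC p5, 1.65 and 1.49 in ciNPC p13, and 1.70 in NPC, a difference of 1.53 (SE 0.17). MEF was the lowest array for both, and the share of all genes with MEF lowest is not given here. Tpx2, an Aurora A activator, read 2.59 on the MEF array and 3.56 on the NPC array, with ciNPC at 3.54 (p5), 3.47 and 3.39 (p13), and Kif20a, a motor of cytokinesis, read 2.69 in MEF, 3.59 in ciNPC p5, 3.15 and 3.19 in ciNPC p13, and 3.28 in NPC. Their differences of 0.88 (SE 0.14) and 0.62 (SE 0.20) had adjusted p of 0.00204 and 0.0399 and were under 2-fold. Foxm1, the transcription factor of late cell-cycle genes, read 1.40 in MEF, 2.23 in ciNPC p5, 2.42 and 2.26 in ciNPC p13, and 2.52 in NPC, and its 0.90 (SE 0.16) was also under 2-fold.

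Several probes were available for 11 of the 50 genes, 26 probes in all, and no gene had probes that differed in the sign of ciNPC minus MEF. In ciNPC minus NPC 1 gene did, Ccne1, and in p13 minus p5 there were 5, Mcm3, Ccnb1, Cdk1, Foxm1 and Mad2l1. The probe differences ran from 0.61 to 3.12, and in 7 genes they lay more than 0.5 apart. The dimmer Cdc6 probe gave 3.12 beside 2.42 for the brighter, and the dimmer Rfc4 probe gave 1.05 beside 1.90. For Foxm1 the dimmer probe gave 2.12 beside 0.90, and the mean of both, 1.51, was called. Of the 3 Ccnb1 probes the others gave 2.17 and 1.45, and of the 3 Cdk1 probes the others gave 1.11 and 0.89, the last being above background on 2 arrays. The second Mki67 probe gave 1.12 beside 1.57. The dimmer Tpx2 probe gave 1.34 beside 0.88, and the other Mad2l1 probes gave 1.42 and 1.49 beside 2.10.

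The second comparison set ciNPC against brain-derived NPC. By limma 0 of 48 members were called in either direction, where 4.91% of all genes were called higher and 0.0801% lower. At an unadjusted p under 0.05 there were 7 members, Gins1, Lig1, Pola1, Pcna, Mcm7, Rfc4 and Mki67, all lower in ciNPC, against 2615 or 16.1% of all 16228 genes. The median difference was -0.26 for replication genes and -0.19 for mitosis genes, beside -0.12 over all genes. With quantile scaling or the deposited table they were -0.14 and -0.07, beside -0.09 over all genes, so the mitosis genes were then no lower than all genes. ciNPC were below NPC for 43 of 48 members, against 62.6% of all genes, but for 34 with quantile scaling, against 61.2%, and all 3 arrays were below NPC for 35, against 42.1% of all genes. Only for Ccne1 were all 3 above, against 23.9% of all genes, and this held on 1 of its 2 probes: on the dimmer probe p5 read -0.70 and p13 -0.93 and -1.23, against -0.80 in NPC. Without p13 replicate 2 the medians were -0.22 and -0.16, and again 0 members were called. The median level in ciNPC was 83.3% of that in NPC for the replication genes and 87.9% for the mitosis genes.

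A missed threshold does not show that the cell types were alike, and the intervals give what the 5 arrays could bound. They rest on the spread of the ciNPC arrays and do not cover a step between slides. The 95% interval lay within 2-fold in both directions for 44 of 48 members and reached 2-fold for Cdc45, Tyms, Cdc6 and Cenpf, with bounds between -1.71 and 1.12 over all members. The share of all genes with intervals this narrow is not given here, so the count is not read as a trait of the members. The lowest replication gene was Cdc6 at -0.54 (interval -1.11 to 0.02, adjusted p 0.325). Pola1 followed at -0.54 (-0.98 to -0.09), and Gins1 stood at -0.51 (-0.85 to -0.18). In each of these all 3 ciNPC arrays lay below NPC, as they did for 42.1% of all genes. Among the mitosis genes Cenpf was lowest at -0.62 (-1.71 to 0.47), which is 65.0% of the NPC level, and Top2a was next at -0.38 (-0.82 to 0.06). At the other end Ccne1 was 0.34 above NPC (-0.01 to 0.70), or 127% of its level, on its brighter probe, while the dimmer probe gave -0.15. Cdc45 was 0.11 above, but without p13 replicate 1 it was -0.22. Rrm2 at -0.04, Rrm1 at -0.10, Plk1 at -0.01, Ndc80 at 0.01, Kif20a at 0.03 and Bub1 at 0.03 straddled 0 and changed sign with the scaling or the array left out. In Bub1, Plk1, Ndc80, Kif20a, Ccnb2, Cenpe, Birc5, Gins2, Tyms, Rrm2 and Cdt1 the p5 array lay above NPC and both p13 arrays below. For Plk1 the step was small, 5.47 at p5 against 5.46 in NPC. With quantile scaling the ciNPC means of Plk1 and Rrm2 lay above NPC, by 0.15 and 0.11. The share of all genes with this order is not given here, so it is not read as a trait of the members.

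**Figure D3:**
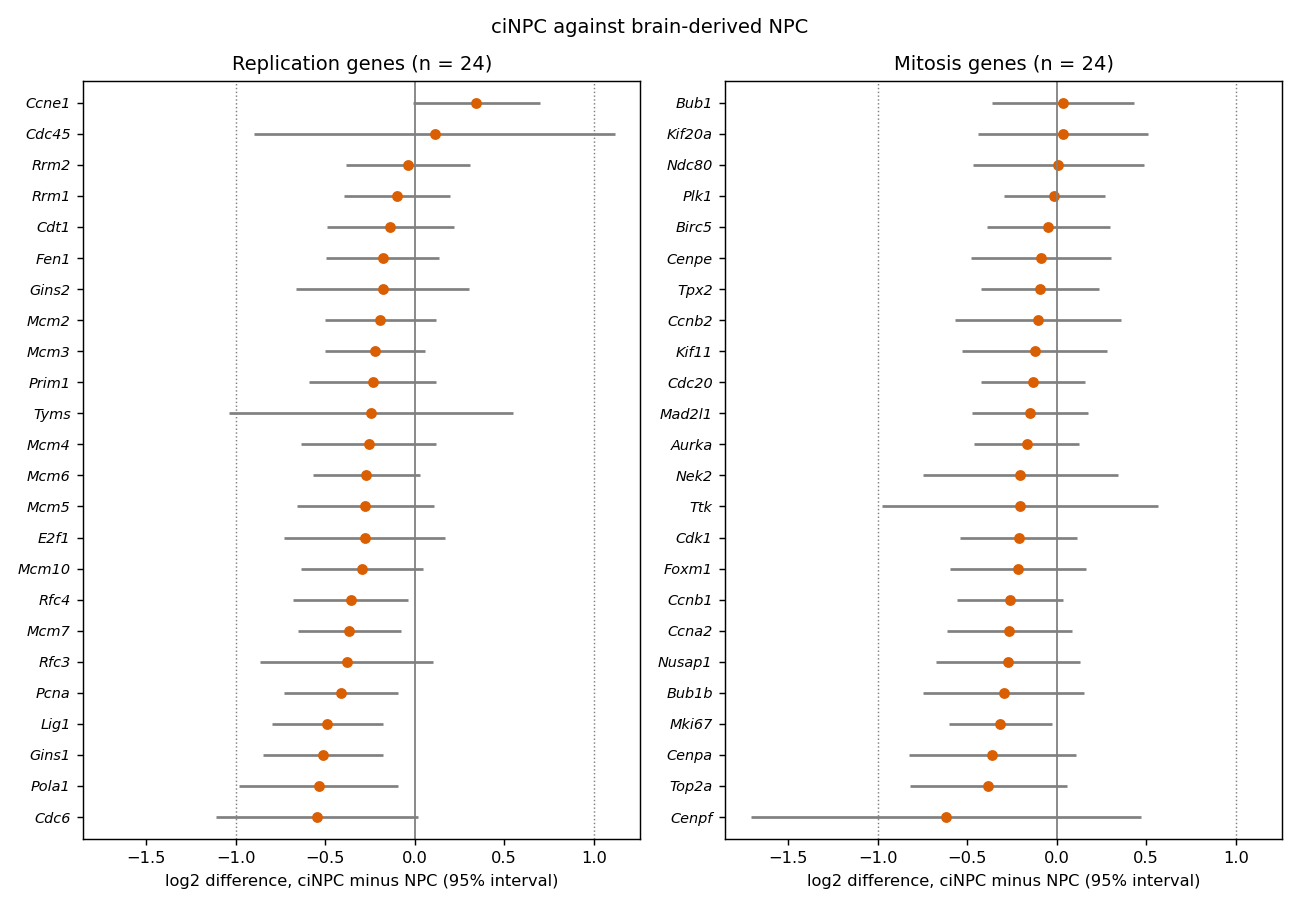
Log2 difference of ciNPC (3 arrays) minus NPC with its 95% interval from limma, for the 24 replication (left) and 24 mitosis genes (right) tested; the solid line is no difference and dotted lines mark 2-fold. Most points lie a little below 0, and the intervals of Cdc45, Tyms, Cdc6 and Cenpf reach a 2-fold line.

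The third comparison, of p13 with p5, lies within 1 slide but leaves 1 residual degree of freedom. By limma 0 of 48 members were called, where 0.407% of all genes were called higher and 0.259% lower. At an unadjusted p under 0.05 there were 14 members, against 3673 or 22.6% of all genes. The median difference was -0.15 for replication and -0.11 for mitosis genes, beside -0.03 over all genes. With quantile scaling they were -0.092 and -0.041, beside -0.067 over all genes, so the mitosis genes then stood above all genes. The difference was below 0 for 39 of 48 members, against 53.4% of all genes, and for 34 with quantile scaling, against 58.1%. With the percentile over detected probes it was below 0 for 28, against 43.7%. On the values as first given, both p13 arrays lay below p5 for 36, against 43.7% of all genes. Both lay above p5 for 5, E2f1, Mcm5, Lig1, Cdc45 and Foxm1, against 35.7%. The p13 replicates were a median of 0.07 apart over the members and 0.16 over all genes, and no member differed between them by 2-fold, against 11.2% of all genes. None of the housekeeping genes or of the further cell-cycle genes tested did so either, so this is not read as particular to the members. Using p13 replicate 1 alone the medians were -0.15 and -0.10, and using replicate 2 alone they were -0.14 and -0.16.

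With fold disregarded, 3 mitosis genes had an adjusted p under 0.05, against 4.41% of all genes on the lower side. Kif20a read 3.59 at p5 and 3.15 and 3.19 at p13, a difference of -0.42 (SE 0.10, adjusted p 0.0367). Cenpa read 4.08 at p5 and 3.68 and 3.66 at p13, a difference of -0.41 (SE 0.10, adjusted p 0.035). Ccnb2 read 4.97 at p5 and 4.63 and 4.49 at p13, a difference of -0.41 (SE 0.10, adjusted p 0.0417). In each the p13 arrays lay together under the single p5 array, and the difference stayed under 2-fold. Of the replication genes Tyms was lowest at -0.54 (SE 0.27, adjusted p 0.276) and Gins2 next at -0.35 (adjusted p 0.124). On the high side Cdc45 gave 0.53 (adjusted p 0.377), carried by replicate 1, E2f1 gave 0.33, Mcm5 0.26 and Lig1 0.14. Cenpf at 0.26 rested on replicate 2, and Foxm1 at 0.11, Ttk at 0.10 and Ccnb1 at 0.01 changed sign under an alternative.

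**Figure D4:**
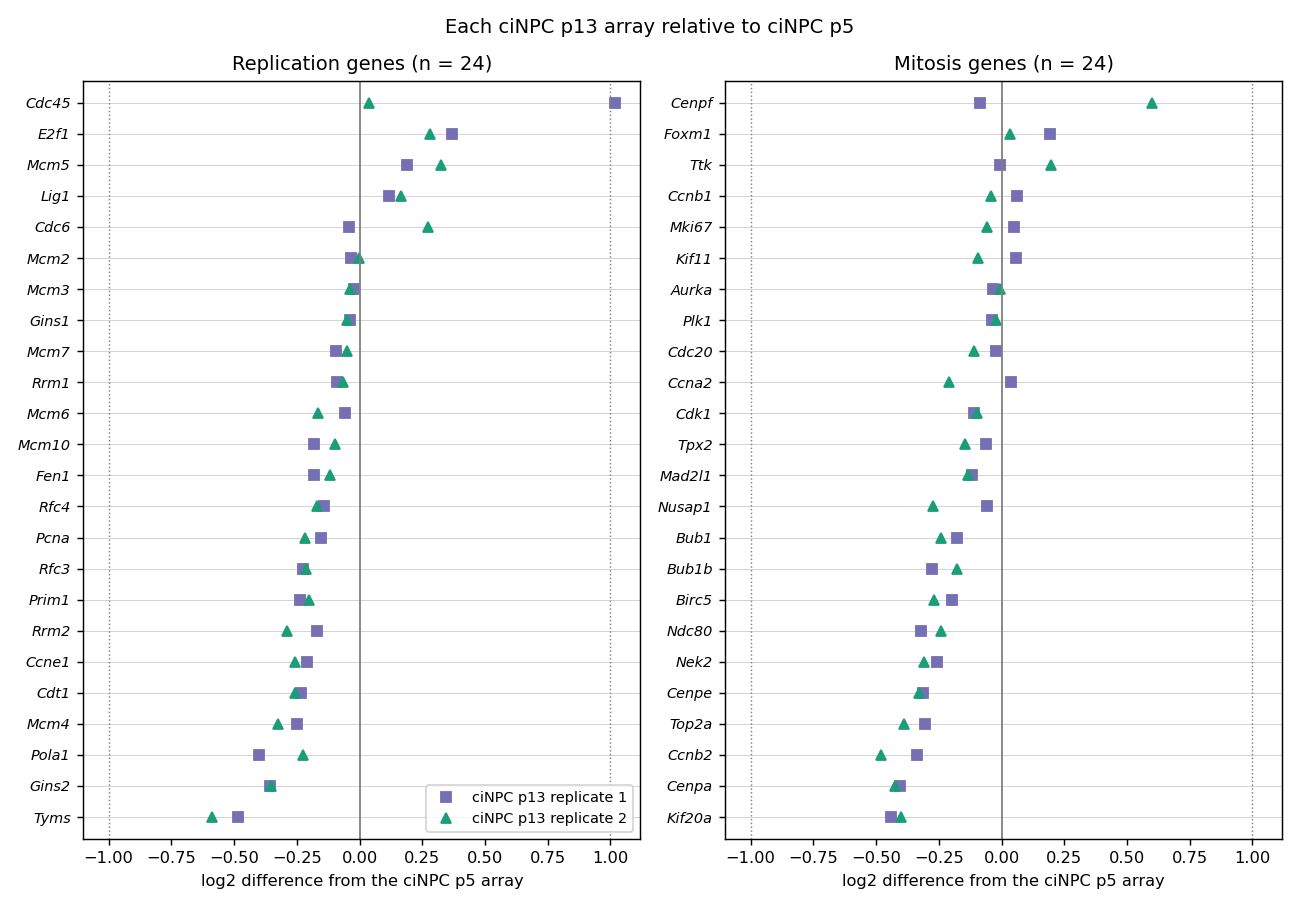
Log2 difference of each p13 array (replicate 1 squares, replicate 2 triangles) from the p5 array for the 24 replication (left) and 24 mitosis genes (right) tested; the solid line is no difference and dotted lines mark 2-fold. Most points lie left of 0, within 0.5 of it, and the p13 squares and triangles are close together except for Cdc45, Cenpf and a few others.

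Other genes of the cell cycle were read from 3 further lists. The remaining replication factors had a median of 1.05 against MEF, with 20 of 39 higher, against 15.6% of all genes, and 0 lower, against 15.1%, and ranged from Gins3 to Dna2. Dna2, a nuclease of Okazaki fragment processing, read -3.32 in MEF, 0.15 in ciNPC p5, -0.41 and -0.52 in ciNPC p13, and 0.33 in NPC, a difference of 3.06 (SE 0.33, adjusted p 4.11e-04). Cdc7, the kinase that fires origins, differed by 2.56 (SE 0.38, adjusted p 0.00154). At the low end Gins3, a further GINS subunit, was -0.41 (SE 0.14) and Rnaseh2a, a subunit of the RNase that removes RNA from DNA, was -0.38 (SE 0.18), neither called. The adjusted p of Gins3 was 0.0478, and it missed the call on fold. Gins4, the remaining GINS subunit, also named after its value was seen, was 0.57 (SE 0.15), with an adjusted p of 0.0187, and stayed under 2-fold too. Of the GINS genes, then, Gins1 and Gins2 were called and Gins3 and Gins4 were not, and the differences between them were not tested.

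The remaining mitosis genes had a median of 1.65, with 51 of 63 tested higher and 0 lower, beside the same 15.6% and 15.1% of all genes. Of the 51, Ncapg was not well above background in MEF. It passed the filter only through the groups where it was high, and its call supports nothing on its own. Kifc1, a motor that focuses spindle poles, read -1.17 in MEF, 3.30 in ciNPC p5, 2.81 and 3.02 in ciNPC p13, and 2.59 in NPC, a difference of 4.22 (SE 0.21, adjusted p 1.95e-05), with every ciNPC array above NPC. Kif18a, a motor that trims kinetochore microtubules, read -2.93 on the MEF array and 1.34 on the NPC array, with ciNPC at 1.13 (p5), 0.81 and 0.88 (p13), a difference of 3.87 (SE 0.22, adjusted p 3.16e-05). Cenpt, a kinetochore scaffold, was 0.19 (SE 0.17), and Mad1l1, the Mad1 checkpoint protein that recruits Mad2, was -0.64 (SE 0.15), neither called. Mad1l1 had an adjusted p of 0.0129 and missed the call on fold alone, while Cenpt had an adjusted p of 0.39. The checkpoint partners Mad2l1 and Mad1l1 thus had differences of opposite sign, and the difference between the genes was not tested.

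The G1 regulators, which lie upstream of the replication genes, had a median of 1.00, with 10 of 21 higher and 0 lower, beside 15.6% and 15.1% of all genes. That median is the value of Cdk6 (SE 0.96, not called), which was well above background in NPC alone. It therefore rests on dim signals in both ciNPC and MEF. Mycn, a proliferation factor of neural progenitors, was not well above background in MEF. It passed the filter only through the groups where it was high, so its call, among the 10, supports nothing on its own. ciNPC exceeded MEF at least 13.0-fold, and the adjusted p of 5.64e-05, from limma on the measured signals, does not belong to that bound. E2f2, an activating E2F, read -0.99 in MEF, 3.13 in ciNPC p5, 3.45 and 3.17 in ciNPC p13, and 3.72 in NPC, a difference of 4.24 (SE 0.18, adjusted p 9.32e-06), while E2f1 did not pass (the difference between the genes was not tested). Ccnd3, a D-type cyclin, was -0.41 (SE 0.12) and Rbl2, the p130 pocket protein of the DREAM complex, was -0.97 (SE 0.32). Both had adjusted p under 0.05, 0.0252 and 0.0396, and stayed under 2-fold. The other D-type cyclins, named after their values were seen, went otherwise. Ccnd1 was 2.95 (SE 0.15, adjusted p 1.81e-05) and called higher, and Ccnd2 was 0.14 (SE 0.13) and not called. Against NPC and between passages 0 genes of these 3 lists were called. Against NPC, 4 G1 regulators, 6 replication factors and 5 mitosis genes had an unadjusted p under 0.05, of 21, 39 and 63 tested and against 16.1% of all genes. Between passages 8, 8 and 20 did, against 22.6% of all genes.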

How the data were processed

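Total RNA of 5 mouse cell samples was hybridised to single-colour Agilent arrays. Per the file headers, the authors extracted spots with Agilent Feature Extraction 10.7.1.1 on a design annotated on mm9, and the processed signal is an intensity, background-subtracted within each array. In the value table the authors deposited, values are log2 with a median of 5.64 in every column, and its scaling step is not given in the sources used here.

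For analysis, the processed intensity was taken to log2 and the array's 75th percentile subtracted, after outlier spots were removed and the spots of a probe averaged. Of 55681 probes, 26582 were named by accession, 3094 by symbol and 26005 not at all, and of the 65 member probes 64 were named by accession and 1, a second Mcm3 probe, by symbol. A gene took its brightest probe on average. The 16228 genes whose probe was well above background throughout 1 or more of the 4 groups were tested in limma 3.58.1 (R 4.3.3, lmFit and eBayes with an intensity trend), with Benjamini-Hochberg adjustment over all of them. ciNPC against MEF and NPC came from a fit of 3 cell types (2 residual degrees of freedom), which takes the single MEF and NPC arrays to vary as ciNPC did, and p13 against p5 from a fit of 4 groups (1 residual degree of freedom). A call needed an adjusted p under 0.05 and 2-fold. NPC against MEF has 1 array each and no test. Intervals are at 95%. Motifs were searched in RefSeq promoter windows of 300 bases. The fitting was tested on simulated data.

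Members and lists were chosen with earlier results of these data known. All 50 members are named. Values on every array, or the difference, are given for the 4 highest and 2 lowest of each list in each comparison, and for the 2 highest and 2 lowest of each further cell-cycle list. Alternatives were normexp (offset 50) with quantile scaling, the deposited table, quantile scaling, the percentile over detected probes, the mean over probes, no filter, a filter on all 5 arrays, no trend, and leaving out each ciNPC array. The number of arrays limits the precision.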

Additional observations from a re-analysis of the deposited data

How the results depend on the processing

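No paired analysis was possible because the labels link no sample of 1 group to a sample of another. Under every alternative with a test, members called lower than MEF stayed at 0 and members called against NPC or between passages stayed at 0, while those called higher than MEF ran from 17 to 20 replication genes and from 18 to 23 mitosis genes. Tyms lost its call against MEF with normexp (0.68), the deposited table (0.94), quantile scaling (0.94), no filter, no trend, and without p5 (0.95), and Mcm6, Rrm1, Cdt1, Ccne1, Ccnb2, Bub1b, Tpx2 and Foxm1 gained one under at least 1 alternative. In what follows the order is normexp with quantile scaling, deposited table, quantile scaling and percentile over detected probes. The replication median against MEF was 1.75, 1.78, 1.78 and 1.73, and the mitosis median was 1.51 with the first, 1.77 with the last and 1.52 with the mean over probes. Against NPC the replication median was -0.14, -0.14, -0.14 and -0.15 and the mitosis median -0.097, -0.071, -0.070 and -0.076. Between passages the replication median was -0.083, -0.095, -0.092 and -0.059, and -0.14 with no filter, and the mitosis median was -0.036, -0.042, -0.041 and -0.028, and ran from -0.16 to -0.098 with either p13 replicate left out. For NPC against MEF the replication median was 1.79, 1.87, 1.87 and 1.86, and 1.83 with no filter, and the mitosis median was 1.57, 1.77, 1.77 and 1.88, then 1.76 with the mean over probes and 1.81 both with no filter and with the filter on all 5 arrays. Against MEF the median of all genes was -0.03, -0.06, -0.06 and 0.06 with these scalings, beside -0.08, so the last raises every gene by about 0.14. Against NPC it was -0.088, -0.088, -0.087 and -0.0044, beside -0.12, and between passages -0.050, -0.068, -0.067 and 0.055, beside -0.03. Members below NPC numbered 35, 34, 34 and 36 of 48, beside 43, and members below p5 34, 34, 34 and 28, beside 39. Of the differences printed, small ones changed sign. Against NPC, Rrm2 became 0.075, 0.11, 0.11 and 0.072, and ran from -0.11 to 0.030 (without p13 replicate 2) with 1 ciNPC array left out. Rrm1 became 0.046, 0.048 and 0.011 with the last 3 scalings, and Plk1 became 0.13, 0.15, 0.15 and 0.096. With 1 ciNPC array left out, Bub1 ran from -0.035 (without p5) to 0.085, Kif20a from -0.11 (without p5) to 0.11, Ndc80 from -0.085 (without p5) to 0.074, and Cdc45 from -0.22 (without p13 replicate 1) to 0.29. Between passages Ttk became -0.0066, -0.041 and -0.040 with the first 3 scalings, and with the mean over probes Foxm1 became -0.063 and Ccnb1 -0.14. Against MEF, Rnaseh2a became 0.00010 with the mean over probes. The cause of these shifts was not tested. Calls over all genes moved by over 1.5 times in places. Against NPC the count lower went from 13 to 41 with normexp, 24 with the deposited table and with quantile scaling, 26 with no trend, 2 with the filter on all 5 arrays, 20 when p5 was left out, 30 when p13 replicate 1 was and 74 when p13 replicate 2 was, and the count higher from 796 to 522, 514 with no trend and 442 with the filter on all 5 arrays. Between passages the 66 higher and 42 lower became 2 and 0 with the deposited table and with quantile scaling, 31 and 59 with normexp, 111 higher with the mean over probes, 32 higher with the filter on all 5 arrays, and 0 and 0 with no trend. With either p13 array left out the passages have no test, since no residual degree of freedom remains, and without p5 they have no comparison. Signal over background limits Ccne2 and Aurkb, which have no tested value, and Cenpf, which has only a bound in MEF.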
